A study of Mus musculus with 60 samples.

Results

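Microglia, the resident macrophages of the brain, were compared after lipopolysaccharide (LPS) and after saline in the 12 libraries whose column titles begin with M_P60. They were chosen by title alone, the 7 columns titled M_P60_LPS against the 5 titled M_P60_Sal, out of 60 libraries in the series. All come from C57BL/6N mice at postnatal day 60, with RNA taken up in Trizol and sequenced as stranded polyA libraries. M in the titles is the male sex, but the sex characteristic reads female for saline library 5 and LPS libraries 2 and 7. The groups share strain, age and tissue in the labels and differ in treatment and in a date described below. The labels give no LPS dose, route or time to collection, no number of animals, and no account of how the cells were isolated. They do not say that each library is a separate animal, so p-values measure the spread between these libraries, which may be technical.

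LPS is a cell wall component of Gram-negative bacteria that is sensed by Toll-like receptor 4 with its co-receptors CD14 and MD-2. One arm of the receptor, through the adaptor MyD88, releases the transcription factor NF-kB and turns on inflammatory cytokines. The other arm, through TRIF, activates IRF3 and the synthesis of type I interferon, which then acts on neighbouring cells through STAT transcription factors to induce antiviral genes. In microglia the same stimulus is known to bring out cytokines and chemokines and to lower genes of the resting state.

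The microglial receptor Csf1r was at no less than 4858 CPM in any of the 12 libraries, where CPM is a gene's share of all counts in the library, scaled to 1000000. Each gene was taken from 1 transcript row. Totals were lower after LPS, 845976 to 1332163 counts against 1982338 to 3228801 after saline, with no overlap (exact permutation test, two-sided p = 0.00126, 792 arrangements). A count of 0 allows up to 3 counts, which is 0.929 to 1.51 CPM in the saline and 2.25 to 3.55 CPM in the LPS libraries. With every library thinned to 802016 counts, 1074 genes rose and 637 fell, against 1256 and 798 at full depth. Xist at 2.27 to 14.3 CPM and 375 to 1325 counts of 4 Y-linked genes in every library went with the titles, not with the 3 female characteristics. The choroid plexus transcript Ttr took up 1.37% to 7.26% of saline counts, most in libraries 3 (7.26%) and 4 (5.49%), and 0.861% to 2.85% of LPS counts. A date in the sample description, whose meaning the labels do not state, falls on 27 March, 31 March or 3 April for saline and on 8, 9 or 10 April for LPS. No date holds both treatments, so treatment and date cannot be told apart. LPS libraries 3, 4 and 5 share 9 April and stood apart in many genes below, and saline libraries 3 and 4 share 3 April. Each left-out pair or trio gives a smaller fit, without LPS 3, 4 and 5 or without saline 3 and 4, whose counts stand beside the lists they change.

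Of 10538 genes tested with edgeR's quasi-likelihood test, 1256 rose after LPS and 798 fell at a Benjamini-Hochberg adjusted p under 0.05. These are the called genes, and calls are edgeR's unless another tool is named. Changes are log2 folds of LPS over saline ± their standard error (SE), with 5 saline and 7 LPS libraries, and the spread is shared with the F-titled libraries of the same age. That is 11.9% of tested genes higher and 7.57% lower, the background against which the gene lists below are read. At least 2-fold changes were called for 696 rises (6.6%) and 478 falls (4.54%). Without LPS libraries 3, 4 and 5, 807 genes rose (7.41%) and 478 fell (4.39%) of 10889 tested. Of the 1256 rises, 767 were called again, and of the 798 falls 398. Calls were also fewer without saline libraries 3 and 4, which leaves a smaller group: 632 genes rose (5.95%) and 136 fell (1.28%) of 10627 tested. Of the 1256 rises 615 were called again there and 0 had the opposite sign. Of the 798 falls 783 were tested there, 135 were called again and 0 had the opposite sign. Leaving out 1 library moved the falls by over 1.5 times for 5 of the 12: to 393 without saline 3, 503 without saline 4, 505 without LPS 2, 504 without LPS 3 and 498 without LPS 7. Rises stayed between 919 and 1493.

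**Figure D1:**
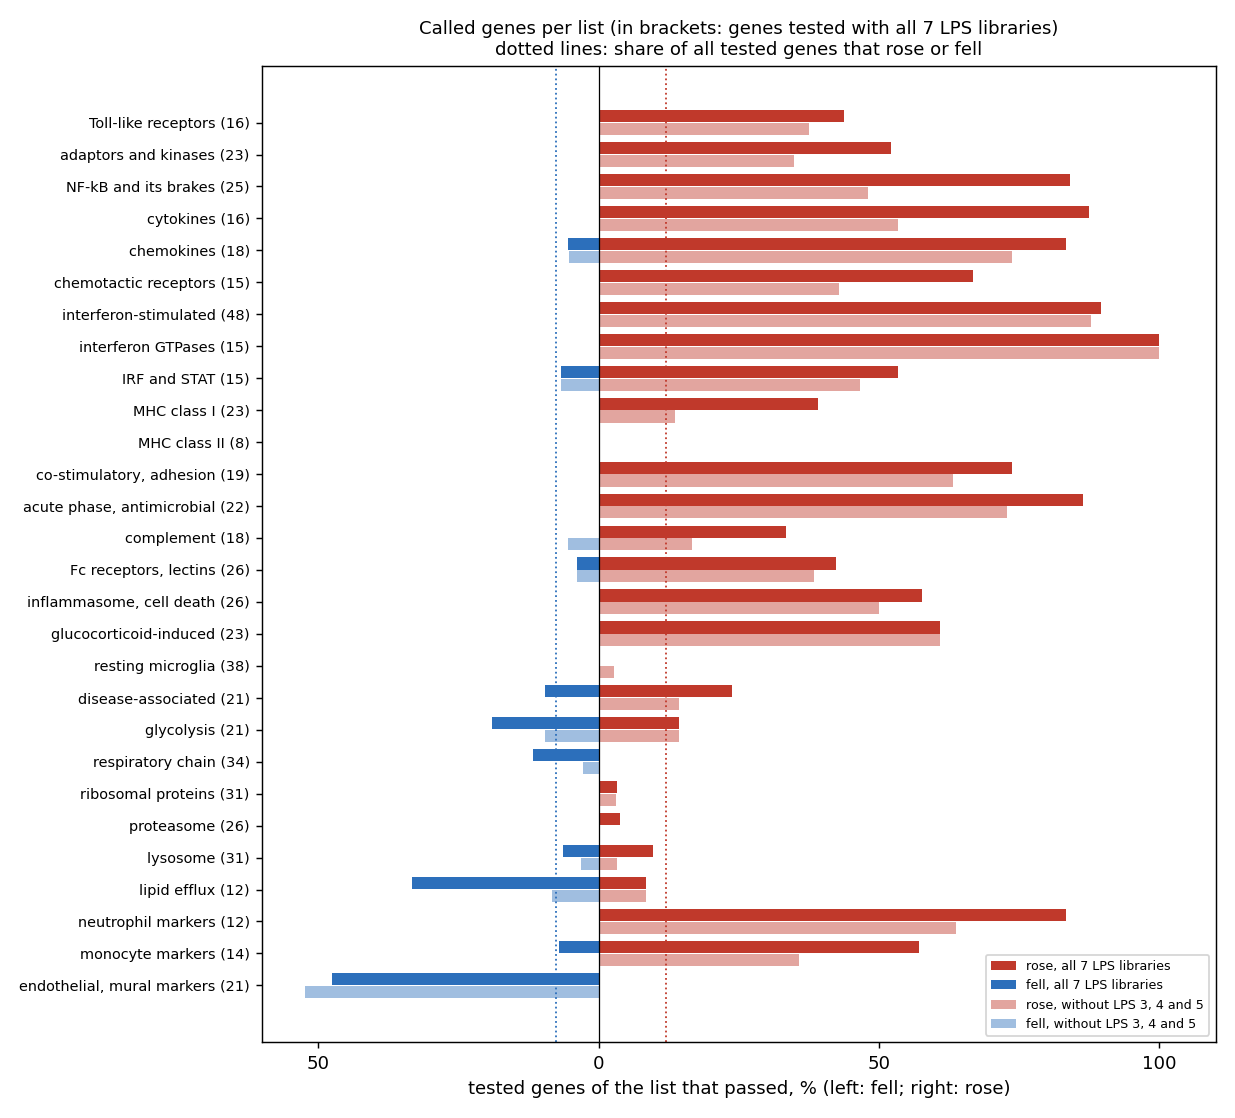
Share of each gene list's tested genes that rose (right, red) or fell (left, blue) after LPS, in percent, with all 7 LPS libraries (solid) and without LPS libraries 3, 4 and 5 (pale). Dotted lines mark the 11.9% and 7.57% of all tested genes. Interferon lists reach farthest right in both fits, the homeostatic list stays near 0, and endothelial markers lie on the side of falls.

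Of 16 tested receptors and co-receptors that sense microbial products, 7 rose and none fell by edgeR (8 and 1 by DESeq2, 8 and 2 by limma-voom), with a median log2 fold of 0.60 against -0.07 over all genes. Tlr4, the LPS receptor itself, had 95.6, 111, 75.2, 81.2 and 139 CPM in saline libraries 1 to 5. After LPS it had 70.7 at the lowest, 113 at the median and 155 at the highest, and the groups overlap (log2 fold 0.24 ± 0.21, adjusted p = 0.439). Ly96, which encodes the co-receptor MD-2, had 10.9 to 17.7 CPM after saline and 7.67 to 25.7 after LPS (log2 fold 0.24 ± 0.33, adjusted p = 0.643). Cd14, the co-receptor that hands LPS to the complex, rose. Its saline libraries held 315, 422, 216, 256 and 248 CPM and its LPS libraries 621 at the lowest, 888 at the median and 1984 at the highest. Every LPS library lay above every saline library, and the 3 libraries of 9 April were the highest at 1181 to 1984 (log2 fold 2.09 ± 0.32, adjusted p = 2.42e-05, and 1.45 without them). Tlr2, the receptor for bacterial lipoproteins, rose by 1.79 ± 0.27, and Tlr7, an endosomal RNA sensor, by 1.34 ± 0.24. Tlr1, the partner of Tlr2, rose by 1.18 ± 0.23. Without LPS libraries 3, 4 and 5 the list had 6 rises of 16, and without saline 3 and 4 it had 4.

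Among 23 tested adaptors and kinases between the receptors and NF-kB or IRF3, 12 rose and none fell (median log2 fold 0.56). Myd88, the adaptor of the inflammatory arm, went from 45.9 to 89.8 CPM to 110.4 to 251 without overlap (log2 fold 1.53 ± 0.24, adjusted p = 2.59e-05). Ticam1, which encodes the TRIF adaptor of the interferon arm, was not called at 0.52 ± 0.30 (adjusted p = 0.221). Map3k8, a kinase that carries the signal to the MAP kinase ERK, rose by 2.88 ± 0.27. Ikbke, a kinase of the IRF3 arm, rose from 0 to 2.10 CPM to 9.98 to 127. Irak3, a decoy kinase that brakes MyD88 signalling, rose by 3.04 ± 0.44, and by 1.71 without the libraries of 9 April. The list had 8 rises without those libraries, and 8 without saline 3 and 4.

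NF-kB subunits and the brakes that NF-kB induces on itself rose broadly, 21 of 25 tested and none fell (median log2 fold 1.40). Nfkbia, the inhibitor that NF-kB resynthesizes to end its own activity, had 429.9, 639, 303, 457 and 372 CPM in the saline libraries. The LPS libraries held 649.6 at the lowest, 786 at the median and 1307 at the highest, all above all saline libraries (log2 fold 1.13 ± 0.22, adjusted p = 0.000321). Tnip3, a partner of the deubiquitinase A20, rose most in log2 terms among the list's called genes of smallest p, by 4.62 ± 0.54. Bcl3, an atypical nuclear IkB protein, rose by 3.21 ± 0.47, Tnip2 by 1.75 ± 0.25, and Dusp16, a phosphatase of stress kinases, by 2.19 ± 0.34. Socs3, which blocks cytokine receptor signalling to STAT3, rose by 2.01 ± 0.32. Tnfaip3, the gene of A20, rose by 1.21 ± 0.28 (adjusted p = 0.00265) and Nfkbiz by 1.13 ± 0.26 (adjusted p = 0.00277). Neither was called without saline 3 and 4, at adjusted p = 0.0853 and 0.0869. Leaving out either the 9 April libraries or saline 3 and 4 brought the list to 12 rises.

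Secreted cytokines rose in 14 of 16 tested by edgeR and none fell (median log2 fold 1.81), while limma-voom called 13 higher and 1 lower. Il1b, the precursor of interleukin-1 beta, had 317, 256, 169, 203 and 191 CPM after saline. After LPS it had 310.4 at the lowest, 555 at the median and 2348 at the highest, with 1779 to 2348 on 9 April and 310.4 to 555 on the other dates. The groups overlap, because LPS library 1 at 310.4 lay below saline library 1 at 317 (log2 fold 2.44 ± 0.43, adjusted p = 0.000132, and 1.18 at adjusted p = 0.0112 without the libraries of 9 April). Tnf, tumour necrosis factor, had 175, 268, 85.3, 114 and 127 CPM after saline and 212 at the lowest, 342 at the median and 891 at the highest after LPS, also overlapping (log2 fold 1.83 ± 0.37, adjusted p = 0.000643). Without the libraries of 9 April Tnf was not called, at 1.01 and adjusted p = 0.052. Il6, a cytokine that drives the acute-phase response, had 12.6, 9.60, 7.06, 11.3 and 6.73 CPM after saline and 22.5 at the lowest, 67.97 at the median and 158 at the highest after LPS. Here the groups did not overlap, and the rise of 3.13 ± 0.45 (adjusted p = 9.12e-06) was called without the 9 April libraries too, at 2.32.

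The cytokine genes of smallest p were Il1rn, Csf3 and Il12b beside Il6. Il1rn, the secreted antagonist of the interleukin-1 receptor, had 5.87, 4.65, 0.504, 2.27 and 2.95 CPM after saline and 122 at the lowest, 293 at the median and 920.4 at the highest after LPS, a log2 fold of 6.87 ± 0.60 (adjusted p = 1.09e-08). Csf3, the granulocyte colony-stimulating factor, had 1 count in all saline libraries together and 513 in the LPS libraries. The ratio of its CPM is 875 with an exact 95% counting interval of 156 to 34608. Il12b, a subunit of interleukins 12 and 23, went from 0 to 1.01 CPM to 13.3 to 106. Il1a rose by 1.63 ± 0.36 (adjusted p = 0.00154), but not without the 9 April libraries (adjusted p = 0.0621). Tgfb1, an anti-inflammatory cytokine, was not called at -0.25 ± 0.33 (adjusted p = 0.629). The list had 8 rises without the 9 April libraries and 9 without saline 3 and 4. Ifnb1, interferon beta, was too low to be tested, with 14 counts in all saline libraries and 33 in all LPS libraries.

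**Figure D2:**
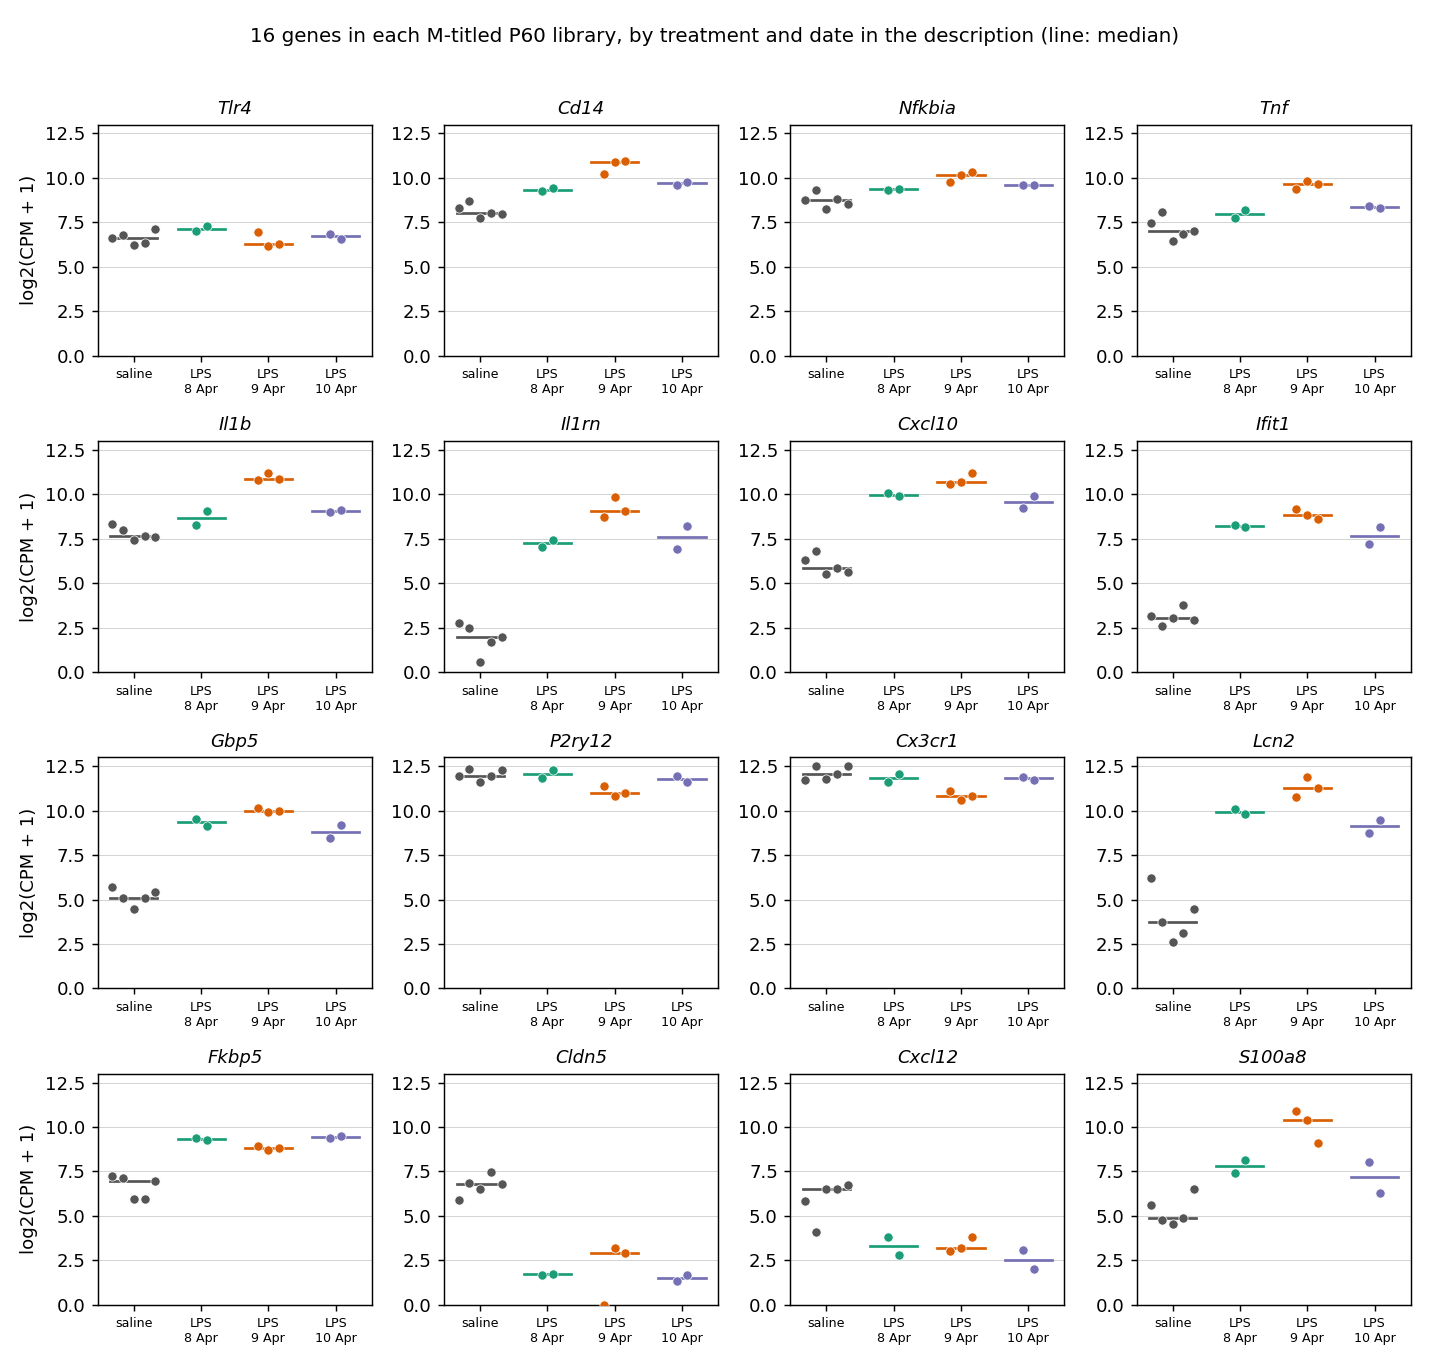
Level of 16 genes in each of the 12 libraries as log2(CPM + 1), with saline libraries on the left and LPS libraries by the date in the description, and lines at the medians. Ifit1, Gbp5, Cxcl10 and Fkbp5 lie above saline at all 3 dates, Il1b and Lcn2 are highest on 9 April, and Cldn5 and Cxcl12 lie below saline at all 3 dates.

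Chemokines rose in 15 of 18 tested and 1 fell (median log2 fold 2.30, the same with Ccl11 at its lower bound). Their summed level went from 1548 to 2590 CPM after saline to 4209 to 9789 after LPS, and 14 rose and 1 fell without the 9 April libraries. Cxcl10, which attracts T cells through CXCR3, had 78.8, 109, 44.9, 57.6 and 48.8 CPM after saline and 602 at the lowest, 1057 at the median and 2313 at the highest after LPS (log2 fold 4.37 ± 0.47, adjusted p = 1.71e-07). Cxcl9, another CXCR3 ligand, had 0.839, 0.929, 0, 0.454 and 0 CPM after saline and 24.8 at the lowest, 42.1 at the median and 54.8 at the highest after LPS (log2 fold 6.31 ± 0.63, adjusted p = 4.6e-08). All LPS libraries were above all saline libraries for both. For Cxcl9 the 9 April libraries spanned 36.2 to 54.8 CPM and the other LPS libraries 24.8 to 54.4. Cxcl11, the third CXCR3 ligand, rose by 4.80 ± 0.53, and Ccl5, which attracts T cells and monocytes, by 4.63 ± 0.66. Ccl3 rose by 1.56 ± 0.25 and Ccl9 by 1.76 ± 0.21. Ccl2, the main monocyte attractant, had 60.8, 91.1, 56.5, 76.7 and 57.2 CPM after saline and 78.7 at the lowest, 163 at the median and 199 at the highest after LPS, and the groups overlap. It was called with all libraries (log2 fold 1.20 ± 0.28, adjusted p = 0.0025) and not without the 9 April libraries (0.72, adjusted p = 0.0958). Ccl11, an eosinophil attractant, had no count in any saline library and 137 counts after LPS, at least 77.8-fold higher against a floor of 3 counts over the saline group.

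Cxcl12 was the chemokine that fell. It holds leukocytes in the marrow and is made in brain by endothelial and neural cells among others. Saline libraries held 56.2, 16.1, 89.3, 92.1 and 105 CPM and LPS libraries 3.00 at the lowest, 7.51 at the median and 13.3 at the highest, all below all saline libraries (log2 fold -2.99 ± 0.47, adjusted p = 3.62e-05). Of 15 tested chemokine, formyl peptide and complement peptide receptors, 10 rose and none fell (median log2 fold 1.40). Fpr2, a formyl peptide receptor, rose from 0 to 1.26 CPM to 22.5 to 164, and Fpr1 from 0 to 1.68 to 9.01 to 203. Cxcr2, the receptor by which neutrophils sense chemokines, rose by 2.97 ± 0.54, and Darc, a scavenging chemokine receptor of venules and red cells, by 4.99 ± 0.90. C5ar1, the receptor of complement peptide C5a, rose by 1.62 ± 0.30. Cx3cr1, which is high in resting microglia, was not called (-0.55 ± 0.24, adjusted p = 0.112). The receptor list had 6 rises without the 9 April libraries and 8 without saline 3 and 4. Markers of neutrophils, which carry the Fpr receptors and Cxcr2, moved with it (sums below), and their part was not tested.

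Interferon-stimulated antiviral genes rose at every date. Of 48 tested, 43 rose and none fell (median log2 fold 2.30), and without the 9 April libraries 43 of 49 rose. Without saline 3 and 4, 42 rose. Their summed level was 1480 to 1846 CPM after saline and 4196 to 9413 after LPS. Ifit1, which binds viral RNA, had 7.97, 4.96, 7.06, 12.7 and 6.73 CPM in the saline libraries. The LPS libraries held 148 at the lowest, 313 at the median and 586 at the highest, with a wide gap to every saline library (log2 fold 5.62 ± 0.53, adjusted p = 3.2e-08, 5.12 without the 9 April libraries). Isg15, a ubiquitin-like modifier, had 7.97, 7.43, 6.56, 9.99 and 7.15 CPM after saline and 69.9 at the lowest, 91.05 at the median and 163 at the highest after LPS (log2 fold 3.89 ± 0.44, adjusted p = 2.89e-07). Ifit3 rose by 4.92 ± 0.54, Oasl1 by 5.79 ± 0.57 and Oasl2, of the oligoadenylate synthetase family, by 3.03 ± 0.28. Rsad2, which encodes the antiviral enzyme viperin, rose by 6.48 ± 0.68, and Parp14, an ADP-ribosyltransferase, by 2.60 ± 0.25. Bst2, which tethers budding virus to the cell, was not called at -0.06 ± 0.26 (adjusted p = 0.89).

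GTPases induced by interferon rose in all 15 tested (median log2 fold 2.62), and in 16 of 16 tested both without the 9 April libraries and without saline 3 and 4. Tgtp1 and Tgtp2 hold the same counts in every library, so these 15 are 14 independent readings. Gbp5, a guanylate-binding protein that acts in inflammasome assembly, had 51.6, 33.1, 21.2, 32.7 and 42.1 CPM after saline and 347 at the lowest, 743 at the median and 1142 at the highest after LPS. Its log2 fold of 4.53 ± 0.32 had the smallest adjusted p in the list, 3.5e-10. Gbp2 rose by 4.07 ± 0.35 and Gbp6 by 4.53 ± 0.38. Ifi47 rose by 4.17 ± 0.41, Irgm1, a regulator of autophagy, by 2.31 ± 0.28, and Igtp by 1.42 ± 0.25. Near-identical copies among the Gbp genes can share reads, so values of single members are uncertain.

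Transcription factors of the interferon arm rose in 8 of 15 tested, and 1 fell (median log2 fold 1.05). Irf1 had 126, 137, 80.7, 101 and 122 CPM after saline and 223 at the lowest, 246 at the median and 331 at the highest after LPS, with no overlap (log2 fold 1.30 ± 0.17, adjusted p = 1.84e-06). Irf7, the factor that amplifies interferon synthesis, rose by 2.99 ± 0.43, Stat2 by 2.04 ± 0.24 and Stat3 by 1.88 ± 0.27. Irf8, which is needed for microglial identity, was not called at 0.04 ± 0.24 (adjusted p = 0.918). The list had 7 rises and 1 fall without the 9 April libraries, and 6 and 1 without saline 3 and 4.

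Promoters of 8 of the genes above and below are printed because they set the interferon and NF-kB targets beside P2ry12, a gene of resting microglia that was not called. Sequences are from RefSeq on GRCm38.p6, 220 bases directly before the start, 5′ to 3′ on the gene's strand. Capitals mark matches to GAAANNGAA, the core of the interferon response element, or to GGANNTTCC, the core of the NF-kB site, on either strand (TTCNNTTTC and GGAANNTCC). Positions count back from the start, with -1 the base before it.
Ifit1: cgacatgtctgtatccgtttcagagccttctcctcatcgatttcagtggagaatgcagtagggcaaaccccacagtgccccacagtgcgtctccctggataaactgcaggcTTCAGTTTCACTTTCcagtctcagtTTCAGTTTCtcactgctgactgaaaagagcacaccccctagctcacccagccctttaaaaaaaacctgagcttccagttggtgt
Ifit3: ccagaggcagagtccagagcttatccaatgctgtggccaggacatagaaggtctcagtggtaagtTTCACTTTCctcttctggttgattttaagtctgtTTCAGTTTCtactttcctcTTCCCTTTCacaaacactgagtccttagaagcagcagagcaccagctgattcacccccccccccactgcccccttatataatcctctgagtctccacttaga
Isg15: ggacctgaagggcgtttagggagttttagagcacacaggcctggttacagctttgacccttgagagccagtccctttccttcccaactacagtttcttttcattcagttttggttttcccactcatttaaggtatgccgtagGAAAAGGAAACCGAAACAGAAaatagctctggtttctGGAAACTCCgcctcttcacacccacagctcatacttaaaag
Gbp5: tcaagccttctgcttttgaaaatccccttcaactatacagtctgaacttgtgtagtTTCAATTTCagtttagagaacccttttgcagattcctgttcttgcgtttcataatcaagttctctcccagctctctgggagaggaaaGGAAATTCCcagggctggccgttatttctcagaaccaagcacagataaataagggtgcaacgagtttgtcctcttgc
Cxcl10: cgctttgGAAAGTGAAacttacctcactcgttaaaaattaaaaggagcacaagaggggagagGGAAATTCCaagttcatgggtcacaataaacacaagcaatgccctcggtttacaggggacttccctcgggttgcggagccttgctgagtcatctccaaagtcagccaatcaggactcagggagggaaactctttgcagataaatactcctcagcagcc
Nfkbia: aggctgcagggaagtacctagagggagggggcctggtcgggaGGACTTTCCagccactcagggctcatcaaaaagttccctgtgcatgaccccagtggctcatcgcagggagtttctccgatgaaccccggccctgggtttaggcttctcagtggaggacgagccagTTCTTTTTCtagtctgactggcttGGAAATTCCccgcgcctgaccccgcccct
Il6: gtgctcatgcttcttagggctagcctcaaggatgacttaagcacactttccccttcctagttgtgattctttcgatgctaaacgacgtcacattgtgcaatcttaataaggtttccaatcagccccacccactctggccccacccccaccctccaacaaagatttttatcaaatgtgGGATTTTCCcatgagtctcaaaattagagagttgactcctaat
P2ry12: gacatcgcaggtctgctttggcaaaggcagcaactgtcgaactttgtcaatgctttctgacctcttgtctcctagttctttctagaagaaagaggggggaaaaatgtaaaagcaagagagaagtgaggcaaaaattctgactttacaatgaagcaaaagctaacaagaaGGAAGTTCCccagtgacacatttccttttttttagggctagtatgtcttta
The Ifit1 window (chr19:34640669-34640888, plus strand) holds 3 interferon cores, which begin at positions -109, -103 and -84. Ifit3 (chr19:34583309-34583528, plus strand) also holds 3, at -155, -121 and -102. Isg15 (chr4:156200819-156201038, minus strand) holds 3 in a row at -78, -72 and -66, and an NF-kB core at -41. Gbp5 (chr3:142496714-142496933, plus strand) holds an interferon core at -164 and an NF-kB core at -77, and Cxcl10 (chr5:92348890-92349109, minus strand) has them at -213 and -158. Nfkbia (chr12:55492648-55492867, minus strand) holds NF-kB cores at -178 and -29 and an interferon core at -53. Il6 (chr5:30012894-30013113, plus strand) holds an NF-kB core at -43. P2ry12 (chr3:59262986-59263205, minus strand) also holds an NF-kB core, at -51.

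Over 27025 gene symbols with a 300-base window around the start, 250 bases before and 50 after, 9.76% hold the interferon core and 4.86% the NF-kB core, and 0.444% hold both, with overlapping matches in 12 genes. Of the tested genes 80.6% had a window, and 8.96% and 5.6% of those hold the cores. For the NF-kB list 22 of 25 members had a window, and 6 of these hold the NF-kB core (27.3%) and 4 the interferon core (18.2%). Fewer than 80% of the genes that rose or fell at least 2-fold had a window, and fewer of the interferon lists, so their shares are void. A match describes these letters and is not a bound site.

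Genes of antigen presentation moved less than the interferon genes. Of 23 class I genes 9 rose and none fell, with a median log2 fold of 0.22. B2m, the invariant chain of class I, rose by 0.73 ± 0.23 (adjusted p = 0.0229) and H2-K1, a classical heavy chain, by 0.81 ± 0.22 (adjusted p = 0.00822). Neither was called without the 9 April libraries, at adjusted p = 0.0897 and 0.0958. Tap1, the peptide transporter, rose by 1.11 ± 0.26 and Psme2, a proteasome activator, by 1.52 ± 0.37. Nlrc5, the transactivator of class I genes, rose by 2.48 ± 0.30 and H2-Q4 by 1.46 ± 0.24. The list had 3 rises without the 9 April libraries and 4 without saline 3 and 4. No class II gene of 8 tested was called by edgeR, DESeq2 or limma-voom, and 0 had an unadjusted p under 0.05. H2-Aa, a class II chain, stood at 0.12 ± 0.40, and Cd74, its invariant chain, at 0.58 ± 0.33. H2 genes share reads among near-identical copies.

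Co-stimulatory, checkpoint and adhesion molecules rose in 14 of 19 tested with no fall (median log2 fold 1.31). Cd274, the checkpoint ligand PD-L1, had 26.4, 21.99, 19.2, 16.8 and 22.7 CPM after saline and 104 at the lowest, 207 at the median and 279.5 at the highest after LPS (log2 fold 3.35 ± 0.36, adjusted p = 1.69e-07). Every LPS library lay above every saline library. Icam1, the ligand of leukocyte integrins, had 481, 617, 194, 227 and 263 CPM after saline and 810.3 at the lowest, 1296 at the median and 2251 at the highest after LPS, also without overlap (log2 fold 2.05 ± 0.37, adjusted p = 0.000193). Cd40, the receptor for T cell help, rose from 0.619 to 4.08 CPM to 14.01 to 51.5, Cd69 by 4.25 ± 0.48, Cd44 by 2.98 ± 0.41 and Cd86 by 0.95 ± 0.20. The list had 12 rises without the 9 April libraries and 10 without saline 3 and 4.

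Acute-phase and antimicrobial genes rose in 19 of 22 tested and none fell, with a median log2 fold of 2.97, the highest among the 33 pathway lists. Without the 9 April libraries that median was 1.76, below 2.37 for the interferon GTPases and 1.96 for the interferon-stimulated genes. Saa3, an acute-phase protein, had 1 count in the saline libraries together, in library 1, and 1103 after LPS. The ratio of its CPM is 1880 with an exact 95% counting interval of 337 to 74333. Its LPS libraries held CPM of 23.3 at the lowest, 40.2 at the median and 647 at the highest, with 139 to 647 on 9 April and 23.3 to 40.2 on the other dates. Lcn2, a protein that keeps iron from bacteria, had 72.97, 12.4, 5.04, 7.72 and 21.04 CPM after saline and 436 at the lowest, 1097 at the median and 3802 at the highest after LPS, again highest on 9 April at 1739 to 3802 (log2 fold 6.17 ± 0.79, adjusted p = 2.22e-06). Irg1, the enzyme that makes itaconate, rose by 6.64 ± 0.69, and Slc7a11, the cystine importer, by 4.75 ± 0.55. Serpina3f rose by 6.25 ± 0.66, Serpina3g by 4.55 ± 0.49 and Sod2, the mitochondrial superoxide dismutase, by 1.60 ± 0.32. Cybb, a subunit of the phagocyte NADPH oxidase, rose by 2.99 ± 0.37. The list had 16 rises of 22 tested without the 9 April libraries and 17 of 23 without saline 3 and 4. Serpina3 genes are near-identical copies, and single members are uncertain. Lcn2 is also a neutrophil granule gene. Neutrophil markers moved with this list and their part was not tested.

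Of 18 complement genes 6 rose and none fell by edgeR (median log2 fold 0.24). Without the 9 April libraries 3 rose and 1 fell, without saline 3 and 4 there were 3 rises, and limma-voom called 5 higher and 3 lower. C3, the central component, had 5.03, 3.10, 5.04, 1.82 and 12.2 CPM after saline and 43.2 at the lowest, 64.6 at the median and 270.4 at the highest after LPS (log2 fold 4.45 ± 0.52, adjusted p = 5.24e-07). Cfb, factor B of the alternative pathway, rose by 2.95 ± 0.43. C1qa, a subunit of the initiating complex, was not called at -0.03 ± 0.29 (adjusted p = 0.952), and C4b was called only with the 9 April libraries (0.70, adjusted p = 0.325 without them). Fc receptors, scavenger receptors and lectins rose in 11 of 26 tested and 1 fell, with 10 and 1 without the 9 April libraries and 9 and 0 of 25 without saline 3 and 4. Clec4e, the receptor for mycobacterial glycolipid, rose by 5.66 ± 0.60, its partner Clec4d by 3.97 ± 0.51, Cd300lf by 4.71 ± 0.43, Msr1, a scavenger receptor, by 2.48 ± 0.28, and Fcgr4 by 2.02 ± 0.36. Fcgr1, the high-affinity IgG receptor, was not called at 0.19 ± 0.17 (adjusted p = 0.438). Gas6, the bridge between dying cells and the receptors Axl and Mertk, fell (-1.01 ± 0.24), but was not called without saline 3 and 4 (adjusted p = 0.109). Inflammasome, caspase and Bcl2 family genes rose in 15 of 26 tested by edgeR with none lower (16 and 1 by limma-voom), in 13 without the 9 April libraries and in 9 without saline 3 and 4. Casp4, which senses LPS in the cytosol, rose by 2.67 ± 0.34, Fas by 3.08 ± 0.36 and Il1r2, the decoy receptor of interleukin-1, by 3.86 ± 0.54. Casp1, the caspase that matures interleukin-1 beta, rose by 0.93 ± 0.24 (adjusted p = 0.00667), but was not called without saline 3 and 4 (adjusted p = 0.12). Nlrp3 was called with all libraries (1.11 ± 0.37, adjusted p = 0.0328) but neither without the 9 April libraries nor without saline 3 and 4.

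Genes induced by the glucocorticoid receptor rose in 14 of 23 tested, none fell, and 14 rose without the 9 April libraries (10 without saline 3 and 4). Fkbp5, a co-chaperone that feeds back on that receptor, had 152, 142, 62.05, 60.8 and 126 CPM after saline and 417 at the lowest, 629 at the median and 712 at the highest after LPS. Its 3 lowest LPS libraries were those of 9 April, at 417 to 481 (log2 fold 2.52 ± 0.35, adjusted p = 5.7e-06). Mt2, a metallothionein, rose by 4.37 ± 0.56 and Hif3a by 3.80 ± 0.50. Tsc22d3 (0.46 ± 0.25) and Sgk1 (0.27 ± 0.22) were not called. Of 24 immediate early genes 5 rose (2 without saline 3 and 4, and 14 by limma-voom), among them Fosl2 by 2.41 ± 0.33 and Maff by 2.05 ± 0.38. Fos (0.18 ± 0.23), Egr1 (0.60 ± 0.29) and Atf3 (0.40 ± 0.29) were not called. Of 15 genes of eicosanoid synthesis 5 rose (3 in either smaller fit). Ptgs2, the inducible cyclooxygenase, had 213, 99.1, 55.5, 75.3 and 88.4 CPM after saline and 437 at the lowest, 861 at the median and 2438 at the highest after LPS (log2 fold 3.73 ± 0.43, adjusted p = 3.65e-07), and Ptges, the prostaglandin E synthase, rose by 3.14 ± 0.45. Ptger4, a prostaglandin E receptor, rose by 2.44 ± 0.31, and Ptgs1, the constitutive cyclooxygenase, was not called at 0.25 ± 0.18. In the circadian clock, 2 of 14 rose, Nfil3 by 1.90 ± 0.31 and Nr1d2 by 0.62 ± 0.17, and Dbp fell (-1.08 ± 0.38, adjusted p = 0.0448), a call lost without the 9 April libraries (adjusted p = 0.125). The clock counts lie near the 11.9% of all tested genes that rose and the 7.57% that fell.

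None of 38 tested genes of resting adult microglia was called by edgeR, at a median log2 fold of -0.08, against the 7.57% of all genes that fell. At an unadjusted p under 0.05, 3 were higher and 2 lower. DESeq2 called 2 higher and 1 lower, and limma-voom 4 higher and 1 lower. Without the 9 April libraries 1 rose, Csmd3, named after its value was seen, by 0.92. P2ry12, the ADP receptor that guides microglial processes, had 3935, 5160.1, 3173, 4030.4 and 4959 CPM after saline and 1798 at the lowest, 3135 at the median and 5043 at the highest after LPS. The groups overlap, but the 3 lowest LPS values, 1798 to 2660.3, were those of 9 April (log2 fold -0.30 ± 0.22, adjusted p = 0.352). Tmem119 had 883, 2529, 976, 1329.8 and 1389 CPM after saline and 523 at the lowest, 1001 at the median and 1334 at the highest after LPS (log2 fold -0.47 ± 0.30, adjusted p = 0.266). Cx3cr1, the fractalkine receptor, had 3420.0, 5829, 3491, 4312 and 5855 CPM after saline and 1537 at the lowest, 3088 at the median and 4215 at the highest after LPS, lowest again on 9 April at 1537 to 2184 (log2 fold -0.55 ± 0.24, adjusted p = 0.112). The summed level of the list was 37027 to 44463 CPM in the 9 April libraries and 56569 to 67192 in the other LPS libraries, against 43970 to 80973 after saline. With the 9 April libraries alone against saline, 5 of the 38 fell, beside 4.08% of all genes tested there: Sall1 (-2.15), Cx3cr1 (-1.17), Gpr34 (-1.15), Rgs2 (-0.89) and P2ry12 (-0.83). With the libraries of 8 April or of 10 April alone 0 fell, beside 0.595% and 1.03% of all genes. Gpr34 and Rgs2 are named after their values were seen.

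Of 18 transcription factors of the lineage 3 rose and 1 fell, Fli1 (-0.59 ± 0.21), beside 11.9% and 7.57% of all tested genes. The fall was called neither without the 9 April libraries (-0.48, adjusted p = 0.222, with 2 rises in the list) nor without saline 3 and 4 (-0.68, adjusted p = 0.0998). Runx1, a factor of blood cell and microglial development, rose by 2.52 ± 0.28, Cebpd by 1.88 ± 0.36 and Cebpb by 1.52 ± 0.32, while Sall1, a factor of microglial identity, was not called at -1.01 ± 0.39 (adjusted p = 0.0663). Of 21 genes that mark neonatal amoeboid or disease-associated microglia, 5 rose and 2 fell (median log2 fold 0.22). Spp1, osteopontin, had 7.55, 9.91, 16.1, 8.62 and 7.58 CPM after saline and 25.5 at the lowest, 67.4 at the median and 260.0 at the highest after LPS (log2 fold 3.40 ± 0.44, adjusted p = 2.47e-06). Apoe, the lipid carrier, had 482, 618, 1034, 895 and 537 CPM after saline and 179 at the lowest, 324 at the median and 503 at the highest after LPS, and the groups overlap (log2 fold -0.95 ± 0.31, adjusted p = 0.0305). It was not called without the 9 April libraries (adjusted p = 0.103) or without saline 3 and 4 (0.429). Axl was not called at 0.36 ± 0.24. Neither smaller fit called a fall in this list, and each called 3 rises. Of 17 genes of TGF-beta signalling, which maintains resting microglia, edgeR called Skil higher (1.11 ± 0.25) and 0 lower. Without saline 3 and 4 Skil stood at 0.82 (adjusted p = 0.0578), and limma-voom called 5 of the 17 higher and 3 lower.

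Metabolic lists differed in their share of called genes, beside the 11.9% of all tested genes that rose and the 7.57% that fell. In glycolysis 3 of 21 rose and 4 fell: Slc2a3, a glucose transporter, rose by 2.18 ± 0.30, Pfkfb3, which activates phosphofructokinase, by 2.20 ± 0.32, and Hif1a by 1.11 ± 0.19. Hk1 fell (-0.86 ± 0.21), Hk2 was not called at 0.44 ± 0.22 and Ldha was not called at 0.62 ± 0.26 (adjusted p = 0.0878). The 3 rises were called without saline 3 and 4 and none of the falls was. Respiratory chain subunits had 4 falls of 34 (median log2 fold -0.58), Ndufa8, Ndufv1, Sdhb and Uqcrc1, with 1 without the 9 April libraries and none without saline 3 and 4, against 17 by limma-voom. In lipid efflux 1 of 12 rose, Ch25h, the cholesterol 25-hydroxylase, by 3.03 ± 0.47, and 4 fell, of which Scd2, a fatty acid desaturase, at -1.40 ± 0.28 was called in both smaller fits. Abcg1, a cholesterol exporter, fell (-0.84 ± 0.25). It was not called without the 9 April libraries (-0.64, adjusted p = 0.152) or without saline 3 and 4, at a fold as large (-0.86, adjusted p = 0.0803), and Abca1 was not called (0.35 ± 0.18). Of 16 cholesterol synthesis genes 1 fell. By edgeR 1 of 31 ribosomal proteins rose, Rpl10 (1.18 ± 0.27), of 26 proteasome subunits Psma6 (0.64 ± 0.22), and of 14 cell division genes Mcm4 (0.69 ± 0.24). Psma6 and Mcm4 were called in neither smaller fit, at folds of 0.49 and 0.69 without the 9 April libraries and 0.70 and 0.65 without saline 3 and 4, and Rpl10 was not called without saline 3 and 4 (adjusted p = 0.0547). Lysosomal genes had 3 rises and 2 falls of 31, with Gla (0.90 ± 0.21) the 1 rise called in both smaller fits. Heat shock genes had 2 rises of 15, Hsph1 (1.06 ± 0.34) and Dnaja1 (0.92 ± 0.26), both lost without the 9 April libraries. The rises among lysosomal and heat shock genes lie near the share of all tested genes that rose.

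Markers of other cells moved between the groups, and their part in the results was not tested. In bulk libraries, fewer cells of a type and less RNA per cell cannot be told apart. Endothelial and mural markers had 10 falls of 21 tested and no rise (median log2 fold -0.99), 11 falls without the 9 April libraries and 5 without saline 3 and 4. Their sum was 2943 to 5070 CPM after saline and 1441 to 2666 after LPS. Cldn5, the main claudin of the blood-brain barrier, had 57.9, 114, 91.8, 175 and 112 CPM after saline and 0 at the lowest, 2.25 at the median and 8.32 at the highest after LPS (log2 fold -4.91 ± 0.54, adjusted p = 2.04e-07). Its highest LPS library lay at 8.32, against 57.9 in the lowest saline library. Its LPS values reach below the floor of 2.25 to 3.55 CPM, so the size of the fall is uncertain. Pecam1, an adhesion molecule of endothelial junctions, had 198, 176, 179.6, 273 and 245 CPM after saline and 66.5 at the lowest, 88.7 at the median and 116 at the highest after LPS, a smaller fall (-1.12 ± 0.22, adjusted p = 0.000546). Tek, the angiopoietin receptor, fell (-2.31 ± 0.34), as did Slco1a4 (-1.80 ± 0.36), while Flt1 was not called (-0.68 ± 0.30, adjusted p = 0.11) and Cdh5, the endothelial cadherin, named after its value was seen, stood at 0.18 ± 0.26 (adjusted p = 0.652).

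Neutrophil markers rose in 10 of 12 tested, with a summed level of 438 to 988 CPM after saline, 1788 to 2810 in LPS libraries of 8 and 10 April and 5830 to 10178 on 9 April. S100a8, an alarmin that fills neutrophils, had 48.2, 26.02, 22.7, 28.6 and 90.5 CPM after saline and 77.3 at the lowest, 286 at the median and 1921 at the highest after LPS, and the groups overlap (log2 fold 4.08 ± 0.73, adjusted p = 0.000165). S100a9 rose by 4.16 ± 0.66, Mmp8, a granule collagenase, by 4.98 ± 0.74 and Retnlg by 3.87 ± 0.69. Granule genes of immature cells were near 0, with 4 counts of Elane after saline and 1 after LPS, and 4 and 0 of Mpo. Without the 9 April libraries 7 of 11 rose. Monocyte markers rose in 8 of 14 tested and 1 fell, Ace (-1.22 ± 0.43). Without the 9 April libraries 5 rose, and without saline 3 and 4 there were 7 rises. Ace was called in neither, at -1.50 (adjusted p = 0.0683) and -0.67 (adjusted p = 0.517). The sum of the monocyte list was 824 to 1691 CPM after saline, 764 to 1129.6 in LPS libraries of 8 and 10 April and 1539 to 2552 on 9 April. The list shares Ly6c1 with the endothelial list, Chi3l3 (Chil3) with the neutrophil list and F13a1 with that of border macrophages. Its sum is therefore not of monocytes alone. Plac8 rose by 5.02 ± 0.63, Ms4a4c by 4.67 ± 0.55 and Vcan by 4.89 ± 0.77. Ly6c2, which marks inflammatory monocytes, rose by 3.05 ± 0.65, but not without the 9 April libraries (adjusted p = 0.139). Ccr2, the receptor that defines those monocytes, had 8.17 to 20.97 CPM after saline and 5.48 to 33.3 after LPS (log2 fold -0.03 ± 0.42, adjusted p = 0.967).

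No marker of border macrophages was called of 8 tested by edgeR or DESeq2, limma-voom called 1 lower, and 0 had an unadjusted p under 0.05, with Mrc1 at -0.14 ± 0.26 and Pf4 at -0.42 ± 0.53. Among lymphocyte genes 3 were tested and Gzmb rose (3.04 ± 0.51), while Cd3e had 5 counts after saline and 0 after LPS, and Cd79a 1 and 1. Astrocyte markers had 2 rises and 1 fall of 8, with Slc1a3, a glutamate transporter, and Gja1, a gap junction protein, higher (1.25 ± 0.22 and 2.26 ± 0.47), Aldh1l1 lower (-1.44 ± 0.48, and -1.34 and -0.65, not called, in the smaller fits) and Aqp4 not called (0.18 ± 0.70). Gfap was too low to be tested. Oligodendrocyte markers had 3 falls of 6, Mbp (-2.44 ± 0.76) and Cnp (-0.86 ± 0.22) among them, with 1 called without the 9 April libraries and 2 without saline 3 and 4. Limma-voom called 1 fall, as did edgeR on the transcript rows of highest total. Their sum was 804 CPM in saline library 1, 111 to 215 in the other saline libraries and 65.0 to 157 after LPS. Of the choroid plexus markers 1 of 10 fell, Otx2, which was called in neither smaller fit nor by DESeq2 (without the 9 April libraries Foxj1 was the 1 called fall), and Ttr itself at -1.22 ± 0.67 was not called (adjusted p = 0.203). Stmn2 was the only neuronal gene tested and fell (-2.13 ± 0.44). The red blood cell genes were too low to be tested.

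**Figure D3:**
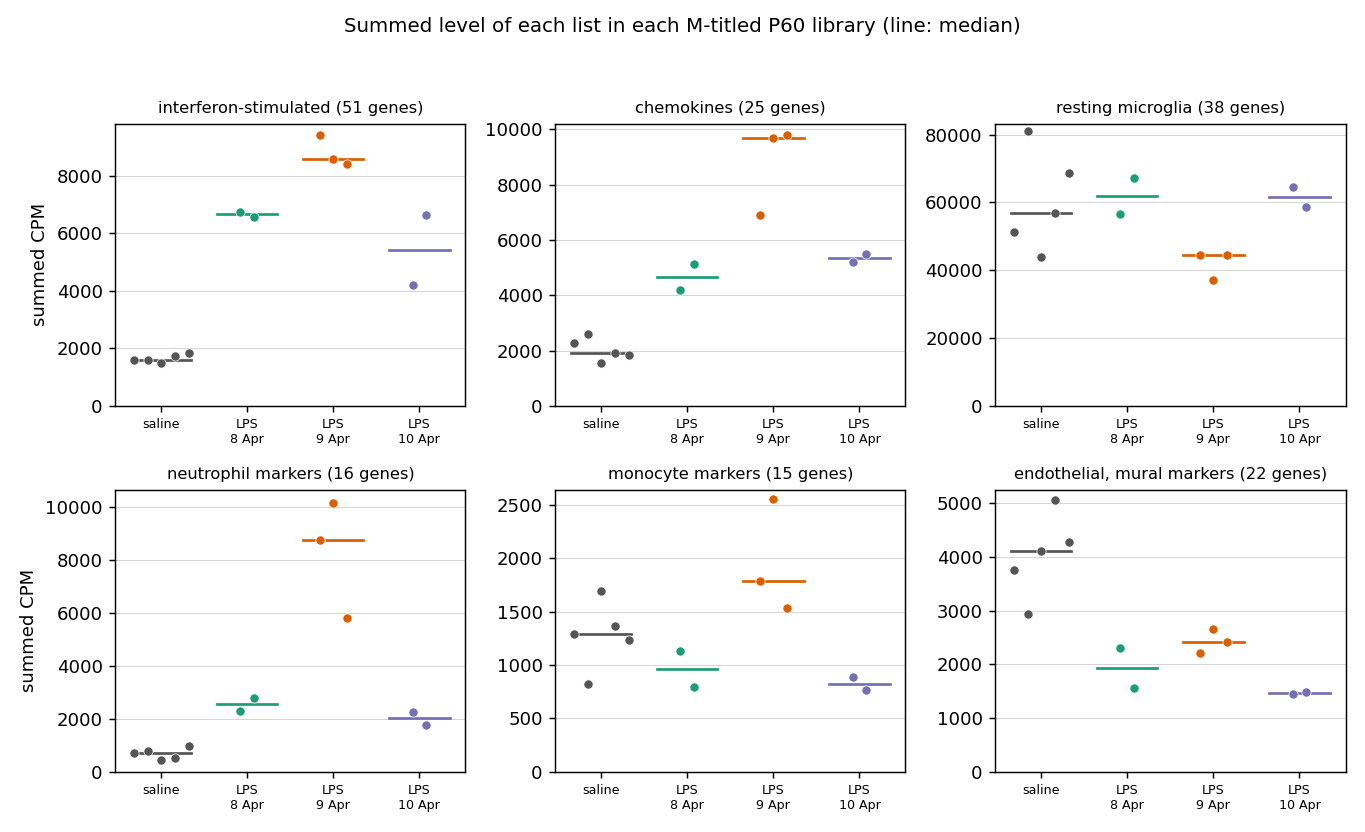
Summed CPM of 6 gene lists in each of the 12 libraries, saline on the left and LPS libraries by date, lines at the medians. Interferon-stimulated genes and chemokines lie above saline at every date, endothelial and mural markers lie below it, and neutrophil markers reach 5830 to 10178 CPM in the 3 libraries of 9 April.

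By fitted log2 fold, and among genes whose mean reached 10 CPM in either group, the largest rises were Saa3, Csf3, Selp, Ccl11, Slfn4, Il1rn, Mefv, Il12b, Irg1, Fpr2, Serpina3n and Rsad2. Selp, the endothelial and platelet selectin, went from 0.842 to 7.97 CPM to 263 to 1505 (log2 fold 8.14 ± 0.60, adjusted p = 5.6e-10). Slfn4, a schlafen gene of myeloid cells, went from 0 to 10.9 to 225 to 1374. Mefv, the gene of the inflammasome protein pyrin, had 2 counts in the saline libraries and 176 in the LPS libraries, a CPM ratio of 150.01 (exact 95% counting interval 40.9 to 1248). All but Ccl11, which was not tested there, were called without the 9 April libraries. The largest falls were Cldn5, Egfl7, Clec14a, Pllp, Sox18, Ret, Ptprr, Syt15, Palm, Hspa12b, Eln and Card10. Egfl7, Clec14a and Sox18 are endothelial genes, as is Cldn5. Egfl7 went from 36.5 to 82.6 CPM to 0 to 3.76 (-4.80 ± 0.48), Clec14a from 18.5 to 84.9 to 0 to 6.65 (-4.57 ± 0.48) and Sox18 from 7.97 to 22.7 to 0 to 2.22 (-4.06 ± 0.57). For each, every LPS value lay below every saline value. These LPS ranges reach below the floor of 2.25 to 3.55 CPM, so the size of each fall is uncertain. Eln, elastin, went from 76.2 to 128 CPM to 3.50 to 21.9. All 12 falls were called without the 9 April libraries, and all but Ret and Syt15, which were not tested there, without saline 3 and 4. Of all 10538 tested genes, every LPS library lay above every saline library for 603 and below for 523.

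Within the LPS group, the 3 libraries of 9 April were set against the 4 of 8 and 10 April. Of 11008 genes tested, 168 were higher on 9 April (1.53%) and 44 lower (0.4%) by edgeR's test. Without LPS library 4 these counts were 30 and 2. Acute-phase genes were higher in 12 of 23 tested and neutrophil markers in 8 of 12, while of 49 interferon-stimulated genes 1 was, of 16 interferon GTPases none, and of 23 glucocorticoid genes none. The 10 genes of smallest p were all higher on 9 April. Saa3 differed by 3.54 ± 0.44, Fpr1 by 3.44 ± 0.52, and Lif, a cytokine of the interleukin-6 family, by 3.22 ± 0.47 on the log2 scale. Niacr1, the receptor of niacin and beta-hydroxybutyrate, differed by 2.33 ± 0.36, Irak3 by 2.19 ± 0.32, Il1b by 2.10 ± 0.33 and Slc39a14, a zinc and iron importer, by 2.05 ± 0.28. Mxd1, a partner of Max, differed by 1.77 ± 0.25, Gsr, glutathione reductase, by 1.74 ± 0.27 and Cpd, a carboxypeptidase, by 1.72 ± 0.23. Their adjusted p lay between 0.000153 and 0.000813.

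For 3 of these genes the libraries of the other dates lay at the saline level. Lif had 9.23, 8.36, 1.51, 6.35 and 6.73 CPM after saline, 36.2 to 57.2 on 9 April and 2.36 to 7.76 on the other dates, so the log2 fold was 1.88 ± 0.57 with all libraries (adjusted p = 0.0196) and -0.29 without them (adjusted p = 0.742). Among genes called with all libraries and at a mean of 10 CPM or more, Lif alone changed sign in that fit. Cpd had 318 to 432 CPM on 9 April and 101 to 154 on the other dates, against 123 to 189.8 after saline. Gsr had 50.4 to 101 and 16.5 to 32.3, against 18.7 to 27.3. By contrast Cxcl9 differed by 0.33 ± 0.52 between the dates (adjusted p = 0.883), Ifit1 by 0.95 ± 0.48 (0.426) and Irf1 by 0.20 ± 0.22 (0.81), none of them called. The folds over saline at 8, 9 and 10 April were 4.24, 4.99 and 3.84 for Gbp5, 0.99, 3.27 and 1.37 for Il1b, and 2.64, 2.18 and 2.81 for Fkbp5. These comparisons share the 5 saline libraries. Called genes numbered 362 higher and 67 lower on 8 April, 1086 and 446 on 9 April and 477 and 119 on 10 April. Of these, 256 rises and 27 falls were called at each of the 3 dates. Neutrophil markers moved with the same 3 libraries (5830 to 10178 CPM, against 1788 to 2810 at the other dates), and their part was not tested.

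**Figure D4:**
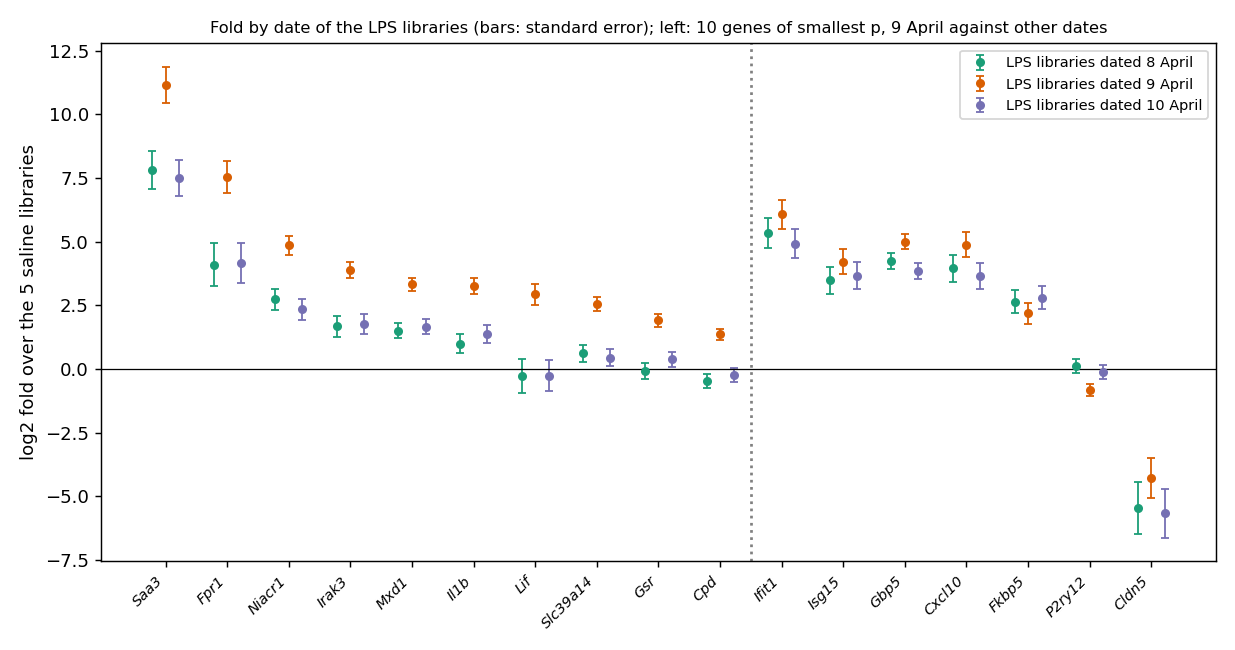
Log2 fold over the 5 saline libraries of 17 genes, for LPS libraries dated 8, 9 or 10 April (bars are standard errors). To the left of the dotted line are the 10 genes of smallest p between 9 April and the other dates, and to the right 7 genes for comparison. Lif, Cpd and Gsr lie near 0 on 8 and 10 April, while Ifit1, Isg15, Gbp5, Cxcl10 and Fkbp5 lie high and Cldn5 low at all 3 dates.

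LPS and saline were also compared in libraries titled F_P60, 7 saline and 6 LPS, and the difference of the 2 effects was tested as an interaction. In the F-titled libraries 439 genes rose (4.17%) and 94 fell (0.892%) of the same 10538. The M effect was higher than the F effect for 31 genes (0.294%) and lower for 62 (0.588%). Interferon-stimulated genes rose in 32 of 48 in the F-titled libraries and interferon GTPases in 14 of 15, beside 43 and 15 in the M-titled. The difference was called for 0 of the 48 and 0 of the 15. Of 38 genes of resting adult microglia 4 fell and 0 rose in the F-titled libraries, beside 0 and 0 in the M-titled. The difference was called for 0 of the 38. The M minus F difference was 0.70 ± 0.38 for Gbp5 (adjusted p = 0.283), 0.89 ± 0.55 for Cxcl10 (0.348), 0.78 ± 0.64 for Ifit1 (0.494), 0.41 ± 0.44 for Fkbp5 (0.617) and 1.88 ± 0.55 for Il1b (0.0668). These do not show that the effects are alike. Of the 21 endothelial and mural markers, 10 fell in M-titled libraries, and in F-titled libraries 2 rose and none fell. The difference was called for 2, Cldn5 and Tie1, both lower in M. The summed level of these markers in F-titled libraries was 1640 to 5686 CPM after saline (median 2175) and 2394 to 4113 after LPS (median 3375). In M-titled libraries the medians were 4105 after saline and 2219 after LPS. The saline medians thus differed between the titles, with overlapping ranges, and their part in the difference was not tested.

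The 10 genes of smallest p for the difference were Cx3cl1 (adjusted p = 0.0181) and Bcam, Cldn5, Eln, Fbln1, Pltp, Plxnd1, Prune2, Tet2 and Tie1 (each adjusted p = 0.0344). Cx3cl1, the ligand of Cx3cr1 and a product of neurons and endothelium, had 55.8, 36.2, 50.9, 35.4 and 28.6 CPM after M saline and 34.3 at the lowest, 50.3 at the median and 84.4 at the highest after M LPS, with overlap (log2 fold 0.46 ± 0.27), against 2.73 ± 0.27 in F. Cldn5 had log2 folds of -4.91 ± 0.54 in M and -1.37 ± 0.44 in F. Tie1, an endothelial receptor, had log2 folds of -1.08 ± 0.28 in M and 0.91 ± 0.27 in F, and Plxnd1, a semaphorin receptor, of -0.76 ± 0.34 and 1.55 ± 0.33. For Eln they were -3.25 ± 0.37 in M and -0.69 ± 0.33 in F, for Fbln1, another matrix gene, -1.70 ± 0.42 and 1.35 ± 0.41, and for Bcam, a laminin receptor, -1.67 ± 0.34 and 0.72 ± 0.33. Pltp, the phospholipid transfer protein, had log2 folds of -1.33 ± 0.25 and 0.42 ± 0.24. Tet2, which oxidizes methylated cytosine, rose by 1.76 ± 0.21 in M and stood at 0.35 ± 0.19 in F (not called), and Prune2 at 1.71 ± 0.18 and 0.37 ± 0.17. Without M saline 3 and 4 edgeR called 0 genes in either direction, with sex taken from the characteristic 0 as well, and without the LPS libraries of 9 April, M 3, 4 and 5 and F 4, 0 higher and 2 lower. In these 3 fits 1024, 1538 and 1964 genes had an unadjusted p under 0.05, against 2255 with all libraries. Leaving out 1 library also gave 0 in both directions for M saline 3, for M LPS 2, 3, 4 or 7, and for F LPS 4 or 6. The characteristic reads female for 3 M-titled libraries and male for some F-titled ones. Y-linked genes summed to at least 321.79 CPM in every M-titled library and at most 41.1 CPM in every F-titled one. The fit by the characteristic therefore mixes the sexes and cannot check the difference. DESeq2 called 244 higher and 282 lower with all libraries.

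**Figure D5:**
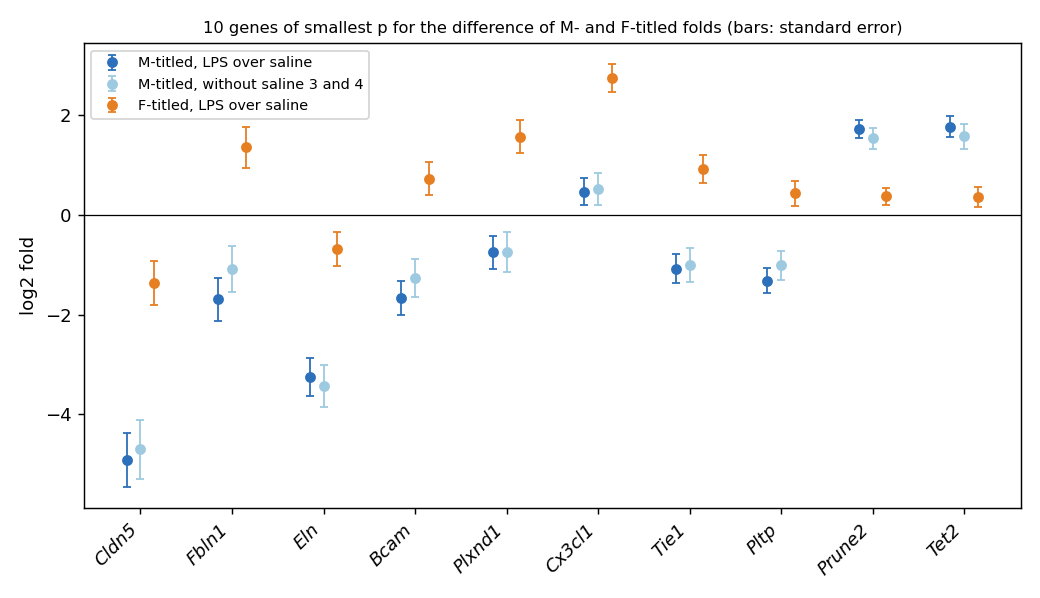
Log2 fold after LPS of the 10 genes of smallest p for the difference between titles, in M-titled libraries, in M-titled libraries without saline 3 and 4, and in F-titled libraries (bars are standard errors). Cldn5 and Eln lie lowest in M, Cx3cl1 is highest in F, and Prune2 and Tet2 are the pair that lies higher in M.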

How the data were processed

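The deposited table holds read counts per transcript, which the authors made from polyA-selected stranded libraries. CASAVA 1.8.2, edgeR and the mouse build mm9 are named in the submitters' processing notes. The aligner is not given in the sources used here, and neither is the counting rule. Of 28644 transcript rows, 1 was kept for each of 22869 gene symbols: the row the file marks as best for 21988 genes and the row of highest total for 881. For 945 genes the marked row is not the highest.

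All 25 P60 libraries were fitted in 4 groups (M and F titles, saline and LPS) with edgeR 4.0.16 in R 4.3.3, using TMM scaling, filterByExpr and the robust quasi-likelihood test on the counts as deposited. P-values were adjusted over all tested genes by the method of Benjamini and Hochberg at a threshold of 0.05. The 9 April contrast split the M LPS group in a fit of 5 groups. The fit was tested on simulated counts first. Alternatives were DESeq2 1.42.0, limma 3.58.1 (voom with sample weights), other scaling, row choice, filter and sex label, thinning to 802016 counts, single dates, a replicate block and leaving out each library. Fits without saline 3 and 4, and with the Ttr level as a covariate, were chosen after seeing the data. Exact 95% intervals cover counting error only.

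The comparison and the gene lists were chosen with earlier results of these data known. Genes were named by a written rule. It takes the 12 largest rises and 12 largest falls among called genes whose mean reached 10 CPM in either group. From each list it takes the preset anchor genes, up to 4 called genes of smallest p and up to 2 against the majority. It adds the 10 genes of smallest p for the M and F difference, the 10 for 9 April, and up to 5 that changed sign without LPS 3, 4 and 5. Lists in the text name their tested members, those that passed the filter on low counts. Symbols not found in the table (Spi1, Ifgga1, Ly6g, Trbc1 and Map2) were left out. Some genes it selects are not reported here.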

Additional observations from a re-analysis of the deposited data

Results flagged for a closer look

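For the 30 genes described in most detail and the library totals, the highest and lowest library of each group was set against Dixon's 95% critical value. Chance flags about 1 in 20 groups, and 7 values were flagged. Among saline libraries, library 1 was far above the others for Lcn2 (73.0 CPM) and Ptgs2 (213 CPM), and library 3 for Spp1 (16.1 CPM). Saline library 1 was also flagged for Saa3 at 0.419 CPM, which is 1 count and below its floor of 1.26 CPM. Among LPS libraries, library 4 of 9 April was far above the others for Saa3 (647 CPM) and Spp1 (260.0 CPM), and library 5 for Irf1 (331 CPM). Each of these genes was called without the 9 April libraries as well.

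The LPS effect differed between M-titled and F-titled libraries for 10 named genes by edgeR's interaction test. The M minus F difference in log2 fold was -3.54 for Cldn5, -3.05 for Fbln1, -2.56 for Eln, -2.40 for Bcam, -2.31 for Plxnd1, -2.28 for Cx3cl1, -1.99 for Tie1 and -1.75 for Pltp. It was 1.41 for Tet2 and 1.35 for Prune2. No gene was called in either direction without M saline 3 and 4, where 1024 genes had an unadjusted p under 0.05. These were the M-titled libraries highest in Ttr (7.26% and 5.49% of counts). Nor was any gene called on leaving out M saline 3 alone, or any 1 of M LPS 2, 3, 4 and 7 and F LPS 4 and 6. The part of single libraries in the difference was not tested further.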

How the results depend on the processing

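Against 1256 rises and 798 falls, edgeR gave 807 and 478 without LPS 3, 4 and 5, 632 and 136 without saline 3 and 4, 362 and 67 with the LPS libraries of 8 April, 477 and 119 with those of 10 April, and 446 falls with those of 9 April. Falls numbered 507 with Ttr as a covariate, 1664 by voom, 1211 in a fit of the 12 M-titled libraries alone and 347 without the 3 libraries whose characteristic is female. Rises of at least 2-fold numbered 331 on 8 April and 425 on 10 April, against 696. Falls of at least 2-fold, 478 with all libraries, numbered 244 with Ttr, 118 without saline 3 and 4, 67 on 8 April, 118 on 10 April, 758 by voom, 317 with sex from the characteristic and 251 without those 3 libraries. Leaving out each library gave 919 to 1493 rises, 393 to 847 falls, 612 to 851 rises and 253 to 596 falls of at least 2-fold. Where a fall count moved by over 1.5 times it lay at 393 to 505, and at 253 to 309 for 2-fold falls.

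For the M and F difference (31 higher, 62 lower), edgeR called 0 and 0 with Ttr as a covariate (1272 genes at an unadjusted p under 0.05), 0 and 0 without saline 3 and 4 (1024), 0 and 0 with sex from the characteristic (1538), and 0 and 2 without the LPS libraries of 9 April, M 3, 4 and 5 and F 4 (1964). The fit by the characteristic mixes libraries of both titles and cannot check this difference. EdgeR called 17 higher with no filter, and 7 and 18 after thinning. DESeq2 called 244 and 282. Leaving out each library gave 0 to 258 higher and 0 to 268 lower. For 9 April against the other dates (168 and 44), DESeq2 called 264 and 67 and no filter gave 22 lower. Leaving out each library gave 30 to 144 higher, 30 to 101 where it moved by over 1.5 times, and 2 to 29 lower. Without LPS 4 these were 30 and 2.

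Lif turned to -0.29 without LPS 3, 4 and 5, -0.28 on 8 April and -0.26 on 10 April, and Gsr to -0.092 on 8 April. The cause was not tested.

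Same-numbered saline and LPS libraries correlated at -0.277 to 0.162 in their deviations, and 0 of 5 correlated best with their own number. These values show no pairing by number, but 5 pairs are too few to exclude it. With a replicate block 998 genes rose and 795 fell (621 and 492 at least 2-fold), and the M and F difference had 35 higher and 94 lower. Another scaling moved the median of all genes by no more than 0.1. LPS totals of 845976 to 1332163 counts limit genes of a few CPM.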

Other observations

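The genes below were each chosen after their values were seen, so they describe single genes and no group. Sele, the selectin that endothelium shows when activated, rose by 5.63 ± 0.81 on the log2 scale and Vcam1, a vascular adhesion molecule, by 2.32 ± 0.34. Adamts9 rose by 4.92 ± 0.44, Adamts4 by 4.73 ± 0.65, Akap12 by 3.88 ± 0.32 and Rcan1, a calcineurin inhibitor, by 3.25 ± 0.26. F3, tissue factor, rose by 2.78 ± 0.48. Thbd, the anticoagulant thrombomodulin, fell (-1.80 ± 0.27), as did Nos3, the endothelial nitric oxide synthase (-1.83 ± 0.39), Ramp2 (-1.74 ± 0.36) and Ocln, a tight junction protein (-1.50 ± 0.34, not called without saline 3 and 4 at adjusted p = 0.0585).

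Osmr, the oncostatin M receptor, rose by 2.28 ± 0.33, Il15ra by 2.56 ± 0.25, Il2rg, the common gamma chain, by 2.24 ± 0.31, Il4ra by 2.19 ± 0.34 and Il1r1 by 1.98 ± 0.31. Jak2 rose by 1.59 ± 0.21 and Jak1 by 1.26 ± 0.19. Txnrd1, thioredoxin reductase, rose by 2.02 ± 0.30, the repressor Bach1 by 1.97 ± 0.30 and Nfe2l2, which encodes the activator NRF2, by 1.13 ± 0.16. Hmox1, heme oxygenase, rose by 1.12 ± 0.25 but was not called without saline 3 and 4 (adjusted p = 0.0578), and Gclm was not called (-0.35 ± 0.22).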
